A study of Mus musculus with 4 samples.

Results

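SNAREs are the membrane fusion proteins of the secretory and endosomal routes, and the genes described here are those of mouse SNAREs together with the soluble proteins that work on them. Members were all probe sets whose only gene symbol in the platform annotation named a syntaxin (Stx), a Vamp, a Snap23-family protein, Bet1, Bet1l, Gosr1, Gosr2, a Sec22, Ykt6, a Vti1, Use1 or Bnip1. The soluble partners added to these were the syntaxin binding proteins (Stxbp), the Sec1/Munc18 proteins Scfd1 and Scfd2, and the disassembly factors Nsf, Napa, Napb and Napg. This gave 127 of the 45037 non-control probe sets on the array, which stand for 49 of the 18193 genes with a probe set of their own. RNA came from NIH/3T3 cells, an established line of mouse embryo fibroblasts, kept without serum on a porous filter that carried fibronectin underneath and not on top. They extended pseudopodia through the pores for 1 h and were fixed in 0.3% formaldehyde for 10 min. The crosslinks were later reversed by heating, in the same way for all samples. There were 2 arrays of pseudopodia, taken after the cell bodies had been wiped off the filter, and 2 arrays of cell bodies, taken after the pseudopodia had been wiped off. Both compartments came from cells given the same fibronectin stimulus, and no unstimulated cells were analysed here. The question was which of these mRNAs differed in share between the protrusion and the body of the cell.

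A SNARE protein carries a helix that zips up with the helices of partner SNAREs on the opposite membrane, and the bundle pulls both membranes together until they fuse. Most SNAREs are tail-anchored: the protein is made in the cytosol and held in the membrane by a hydrophobic stretch at its very end, inserted after translation. The Snap23 family and Ykt6 lack such an anchor and are held by lipids or by their partners. Sec1/Munc18 proteins clasp syntaxins and guide the assembly of the bundle, and Nsf with its adaptors, the Nap proteins, takes spent bundles apart. In fibroblasts these proteins deliver matrix proteins, integrins and membrane to the cell surface and carry cargo to lysosomes.

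Levels are given as linear probe set intensities with a floor of 20, at which a level is only an upper bound. Median intensities lay between 40.5 and 45.6 on the 4 arrays, and 30.5% to 34.8% of the probe sets lay at the floor. The fibroblast markers S100a4, Vim and Lgals1 read between 9697 and 15025 on every array. Thy1 was at the floor on all 4. The summed intensity of 11 fibroblast markers was 62520 and 63243 in pseudopodia and 83952 and 91996 in cell bodies. Of the 10 that were tested, 5 fell, beside 8.69% of all genes. Both pseudopodia arrays were below both cell body arrays for all 10, as for 31.4% of all genes. Of 7 epithelial markers, 6 were above the filter described below, with sums of 2627 to 2724 in pseudopodia and 2948 to 3792 in cell bodies. None of 4 haematopoietic markers and 3 of 7 neuronal markers were above it. For Actb, the 3' probe set exceeded the 5' one by 0.56 and 0.65 (log2) in pseudopodia and by 0.37 and 0.36 in cell bodies, and the part of this in the results was not tested. Both compartments are parts of cells of the same line, so these sums do not count cells of a type. Why the sums differ was not tested. The series describes its samples as independent without naming separate cultures. The p-values therefore measure only the spread between these arrays, which may be technical.

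Each gene was represented by its brightest probe set, and genes whose mean log2 intensity fell short of the array-wide median for probe sets other than controls, an intensity of 42.0, were not tested. Of the 49 genes, 44 passed. Those that did not pass were Snap25, the synaptic relative of Snap23, Stx19 and Stxbp6, with every probe set at the floor on all arrays, together with Vamp1 and Napb. The brightest probe set of Vamp1 read 25.7 and 20 in pseudopodia and 38.1 and 46.8 in cell bodies, and that of Napb read 27.7 and 51.5 against 37.4 and 35.9. Among the tested members, the brightest of each kind read well above the floor. Napa read 2877 and 2821 in pseudopodia against 2972 and 2696 in cell bodies. Vamp8, an endosomal SNARE, read 3145 and 2994 against 3055 and 3133, and Snap47 read 3911 and 3680 against 4720 and 4189. The arrays of the compartments overlapped for Napa and for Vamp8, and both pseudopodia arrays were lower for Snap47, by a log2 difference of -0.23 (SE 0.14, adjusted p = 0.338).

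Pseudopodia held a larger share of 5 SNARE mRNAs than cell bodies did. These were Vamp7, Vamp4, Bet1, Vti1b and Snap29, with differences of 1.48-fold to 2.97-fold, and 0 of the 44 tested members fell. By limma with Benjamini-Hochberg adjustment at 0.05, 14.6% of all 11320 genes tested differed, with 5.92% higher in pseudopodia and 8.69% lower. The 5 members that rose are 11.4% of those tested, and whether the share differs from that of all genes was not tested. At an unadjusted p under 0.05 limma gave 9 members higher and 1 lower. The share of all genes at this unadjusted threshold was not taken, so these counts have no background beside them. Counted without a test, both pseudopodia arrays were above both cell body arrays for 23 of the 44 members, as for 29.5% of all genes. Both were below for 5 of the 44, as for 31.4% of all genes. With only 2 arrays per compartment, an exact permutation test of a single gene could give no p under 33.3%, so none was run.

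Vamp7, a tail-anchored SNARE of late endosomes and lysosomes that also drives their fusion with the cell surface, was the member furthest apart. It read 384 and 340 in pseudopodia and 129 and 114 in cell bodies. The arrays of each compartment lay close together, far from those of the other. The log2 difference was 1.57 (SE 0.15, adjusted p = 0.0166, limma), or 2.97-fold. Its other probe set read 189 and 167 against 58.0 and 39.9, a difference of 1.86 (SE 0.23, adjusted p = 0.0243 by limma over all probe sets). In the fit over all probe sets, Vamp7 was the only member with more than 1 probe set called higher.

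Vamp4, a SNARE of the trans-Golgi network that serves traffic between endosomes and the Golgi, read 559 and 547 in pseudopodia and 285 and 243 in cell bodies. Both pseudopodia arrays were close together and far above either cell body array. The log2 difference was 1.07 (SE 0.15, adjusted p = 0.0189, limma), or 2.10-fold. A dimmer probe set of Vamp4 lay 0.60 above cell bodies (adjusted p = 0.0765 over all probe sets), and the dimmest, between 33.9 and 52.7 on all arrays, had one of -0.14. With the mean of its probe sets in place of the brightest, the difference of Vamp4 was 0.51 (adjusted p = 0.102).

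Bet1, a SNARE of vesicles that travel from the endoplasmic reticulum to the Golgi, read 280 and 242 in pseudopodia and 169 and 143 in cell bodies. The compartments did not overlap, and the log2 difference was 0.74 (SE 0.16, adjusted p = 0.0464, limma). The other probe set of Bet1 read 287 and 246 against 136 and 136, a difference of 0.97 (SE 0.15, adjusted p = 0.0311 over all probe sets). Its close relative Bet1l, which works within the Golgi, went the other way in value. It read 406 and 482 in pseudopodia and 651 and 599 in cell bodies, with a difference of -0.49 (SE 0.15, adjusted p = 0.0984). All 4 probe sets of Bet1l had differences between -0.56 and -0.43, and none of them was called, although the dimmest was with the filter raised to an intensity of 100 (adjusted p = 0.0459).

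Vti1b, a late endosomal SNARE, was the brightest member that rose. It read 2701 and 2571 in pseudopodia and 1650 and 1667 in cell bodies, a gap far wider than that between arrays of a compartment. On its single probe set the log2 difference came to 0.67 (SE 0.13, adjusted p = 0.0342, limma), or 1.59-fold. Vti1a, its relative at the trans-Golgi network, read 414 and 497 against 381 and 374 (0.26, adjusted p = 0.310).

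Snap29, which lacks a tail anchor and takes part in the fusion of autophagosomes with lysosomes, read 222 and 232 in pseudopodia and 150 and 155 in cell bodies. The arrays of each compartment lay close together, and the log2 difference was 0.57 (SE 0.13, adjusted p = 0.0487, limma). This call lies just inside the threshold. It was lost without the probe sets ending in _x_at or _s_at (adjusted p = 0.0551) and with the mean of the gene's probe sets (adjusted p = 0.0686), and the call of Bet1 was lost by the first of these (adjusted p = 0.0506). None of these 5 calls held without the filter on low values. Limma then called 2 of 18193 genes, 0 of them higher, so this loss is not particular to the 5. The calls were also lost with any 1 of the 4 arrays left out. That leaves a single array in 1 compartment, and calls were then lost over all genes alike. The differences then ran from 1.48 to 1.66 for Vamp7, 0.95 to 1.18 for Vamp4 and 0.62 to 0.86 for Bet1. They ran from 0.63 to 0.70 for Vti1b and 0.54 to 0.60 for Snap29.

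**Figure D1:**
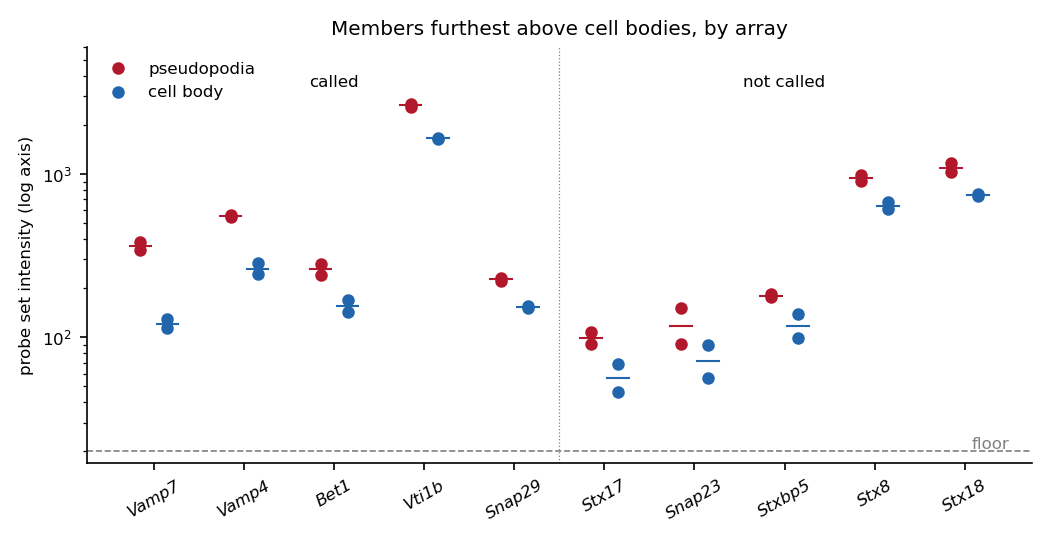
Intensity on a log axis on each array (dots) with the geometric mean of the 2 arrays of a compartment (line) for the 5 members called higher in pseudopodia and the 5 others at least 0.5 apart on the log2 scale. The pseudopodia arrays of Vamp7, at 384 and 340, sit above its cell body arrays at 129 and 114, while the cell body arrays of Snap23 and Stx17 spread widely.

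Members at least 0.5 apart that were not called were Stx17, Snap23, Stxbp5, Stx8 and Stx18, and each had both pseudopodia arrays above both cell body arrays. Stx17, a syntaxin of autophagosomes whose membrane anchor is a hairpin, read 107 and 90.8 against 68.1 and 46.1 (0.80, SE 0.23, adjusted p = 0.0828). Snap23, the partner of syntaxins at the cell surface, read 152 and 91.3 against 89.6 and 56.6 (0.72, SE 0.34, adjusted p = 0.226). For Snap23 the pseudopodia arrays differ from each other by as much as the compartments do. Stxbp5, also called tomosyn, which holds syntaxins back from fusion, read 176 and 184 against 138 and 99.5 (0.62, SE 0.20, adjusted p = 0.107). Stx8, a late endosomal syntaxin, read 910 and 990 against 672 and 610 (0.57, SE 0.14, adjusted p = 0.0592). Stx18, a syntaxin of the endoplasmic reticulum, read 1032 and 1160 against 755 and 731 (0.56, SE 0.14, adjusted p = 0.0604). Stx8 and Stx18 lie just outside the threshold, and both passed it with median centring (adjusted p = 0.0423 and 0.0455) and with quantile normalization (0.0389 and 0.0405). With the mean of a gene's probe sets their differences were 0.27 and 0.21 (adjusted p = 0.292 and 0.404), and without probe sets ending in _x_at or _s_at that of Stx18 was 0.18 (adjusted p = 0.510).

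Promoter windows are shown for members called higher, and are the 250 bases before the RefSeq start on GRCm38.p6, 5′ to 3′ on the gene's strand. Capitals mark matches, on either strand, to the GC box GGGCGG, the ETS core CCGGAAG, the E-box CACGTG or the cyclic AMP element TGACGTCA. Of the 49 genes, 44 had an entry, Vamp7 not among them. Vamp4 has 2 starts, and Snap29 held no match. The windows lie at chr6:4086931-4087180 on the minus strand for Bet1, chr12:79172459-79172708 on the minus strand for Vti1b, and chr1:162570265-162570514 and chr1:162570578-162570827 on the plus strand for the starts of Vamp4.
Bet1: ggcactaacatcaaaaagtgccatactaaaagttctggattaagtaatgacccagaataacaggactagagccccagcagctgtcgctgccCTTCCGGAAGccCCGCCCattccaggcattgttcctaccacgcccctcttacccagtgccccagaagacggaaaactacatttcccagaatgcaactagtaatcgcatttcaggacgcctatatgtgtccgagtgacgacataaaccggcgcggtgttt
Vti1b: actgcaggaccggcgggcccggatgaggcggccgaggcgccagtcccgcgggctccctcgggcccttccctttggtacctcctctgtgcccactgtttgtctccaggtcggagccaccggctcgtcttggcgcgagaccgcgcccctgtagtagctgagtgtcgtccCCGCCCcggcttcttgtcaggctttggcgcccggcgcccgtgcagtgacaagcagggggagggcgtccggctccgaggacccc
Vamp4, first start: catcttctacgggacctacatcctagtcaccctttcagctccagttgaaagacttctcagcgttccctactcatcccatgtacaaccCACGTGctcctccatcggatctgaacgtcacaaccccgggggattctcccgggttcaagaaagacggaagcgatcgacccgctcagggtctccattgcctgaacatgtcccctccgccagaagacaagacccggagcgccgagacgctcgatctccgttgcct
Vamp4, second start: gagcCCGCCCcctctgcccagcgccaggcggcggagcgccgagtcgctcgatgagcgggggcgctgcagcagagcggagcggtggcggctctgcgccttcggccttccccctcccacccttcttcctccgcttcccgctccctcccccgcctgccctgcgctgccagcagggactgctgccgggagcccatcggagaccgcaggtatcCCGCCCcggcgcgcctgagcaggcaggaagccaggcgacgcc
Bet1 holds a palindrome that reads as the ETS core on both strands and 1 GC box beside it. Vti1b holds 1 GC box, the second start of Vamp4 holds 2, and its first start holds 1 E-box. Among all 32851 windows of this length, 32.7% hold a GC box, 6.91% the ETS core, 6.02% the E-box and 1.55% the cyclic AMP element. Among the 51 windows of members the shares were 52.9%, 5.88%, 13.7% and 3.92%. A match is a description of letters and was not tested against the arrays.

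Tail-anchored SNAREs lay slightly above soluble partners in pseudopodia. Of 26 tested tail-anchored SNAREs, 4 rose and 0 fell, 20 had differences above 0, and both pseudopodia arrays were above both cell body arrays for 16. Of 10 tested soluble partners, 0 rose and 0 fell, 4 had differences above 0, and 2 had both pseudopodia arrays above. Over all genes tested, 5.92% rose, 8.69% fell and 29.5% had both pseudopodia arrays above. The median log2 difference was 0.16 for the tail-anchored SNAREs, -0.032 for the soluble partners and -0.0020 for all 11320 genes, of which 49.7% had differences above 0. The sign of the soluble median turned with quantile normalization (0.043), median centring (0.0080) and the mean of a gene's probe sets (0.0015), while that of the tail-anchored SNAREs stayed above 0 in every setting tried. The median over all genes also moved, to 0.053 with quantile normalization and 0.038 with median centring, so the soluble median stayed below it there. With the mean of a gene's probe sets the median over all genes was -0.0042. After each gene's mean over the arrays was removed, the median of the tail-anchored SNAREs minus that of the soluble partners was 0.055 and 0.092 in pseudopodia and -0.059 and -0.12 in cell bodies. The gap of 0.20 between the class medians is a description of these members, with no test, and single members of each class spread far wider than it. The gap also mixes class with route. None of the soluble partners was placed on the route of the trans-Golgi network, endosomes and lysosomes, which had the highest median of the routes (0.44).

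**Figure D2:**
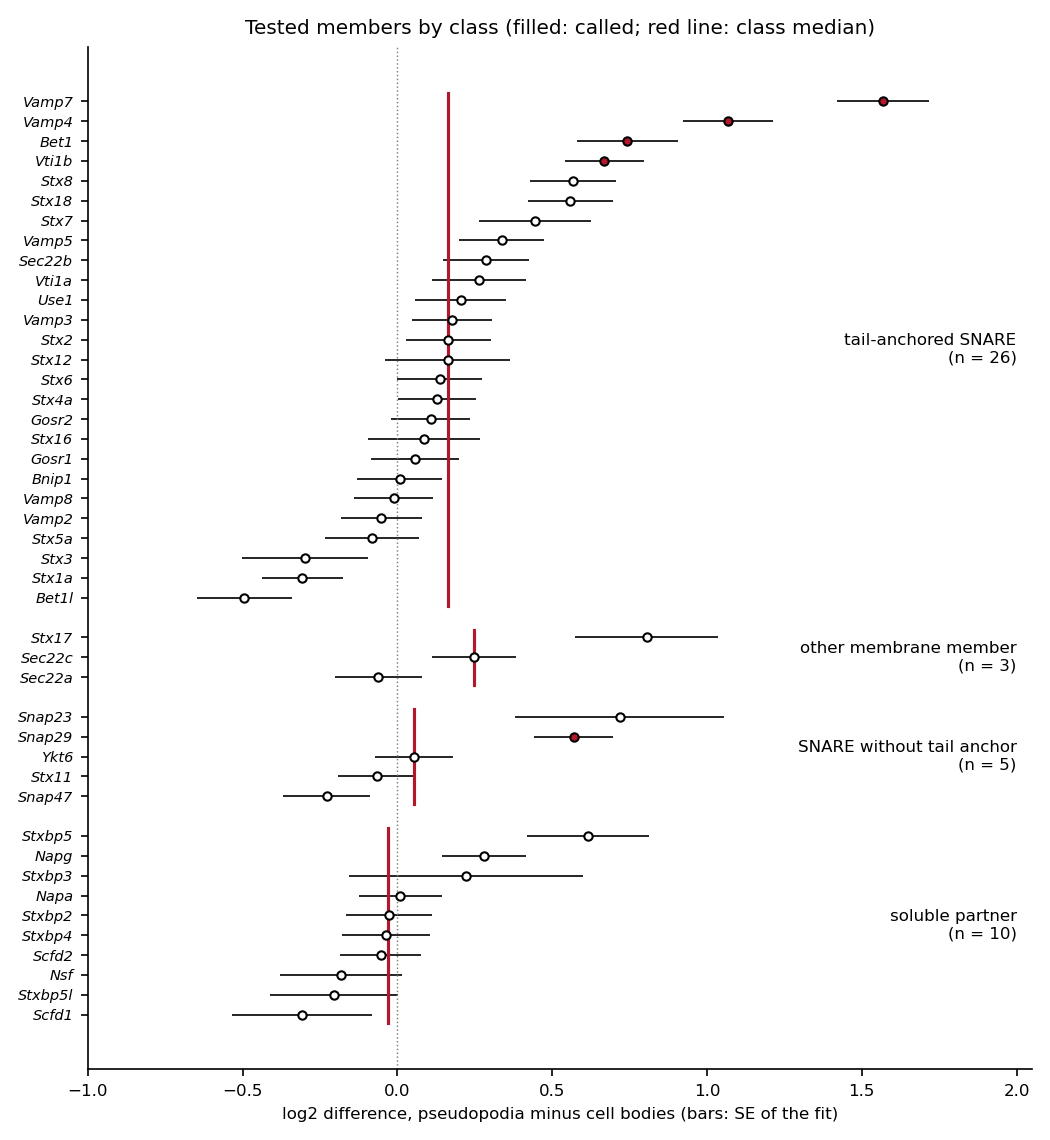
Log2 difference of pseudopodia minus cell bodies for each of the 44 tested members (dots, with the SE of the limma fit as bars), by class, with filled dots for calls and a red line for the class median. The 26 tail-anchored SNAREs run from -0.49 for Bet1l to 1.57 for Vamp7, and the 10 soluble partners from -0.31 for Scfd1 to 0.62 for Stxbp5.

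Among the soluble partners, no disassembly factor was called. Nsf, the ATPase that unwinds spent bundles, read 1201 and 864 in pseudopodia and 1152 and 1158 in cell bodies (-0.18, SE 0.20, adjusted p = 0.592). Napa, its main adaptor, had a difference of 0.0092, which was the smallest of the 3. Napg, another adaptor, read 263 and 238 against 212 and 200, so that both pseudopodia arrays were above both cell body arrays (0.28, adjusted p = 0.241). A dimmer probe set of Napg lay the other way, at -0.93 (adjusted p = 0.178 over all probe sets). The Sec1/Munc18 proteins Stxbp2, Stxbp3, Scfd1 and Scfd2 had differences from -0.31 to 0.22, and the arrays of the compartments overlapped for all 4. Stxbp2, the brightest of them, read 1316 and 1486 against 1443 and 1407. Stxbp4 read 245 and 242 against 232 and 270, and Stxbp5l, at 51.1 and 51.8 against 49.6 and 71.3, lay near the filter.

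By the membrane on which they act, the SNAREs of the trans-Golgi network, endosomes and lysosomes, taken as 1 route, had the highest median difference, at 0.44. Of 11 tested, 3 rose (Vamp7, Vamp4 and Vti1b) and 10 had differences above 0, beside 5.92% and 49.7% of all genes. The member of this route below 0 was Vamp8, at -0.012 (adjusted p = 0.964). Quantile normalization (0.11) and median centring (0.028) turned that sign, and they also moved the median over all genes, to 0.053 and 0.038. Of 14 tested members of the reticulum and Golgi, 1 rose (Bet1) and 9 were above 0, with a median of 0.054, and of 16 of the plasma membrane, 1 rose and 8 were above 0, with a median of 0.050. The latter call was Snap29, counted there with the Snap23 family although it also acts on autophagosomes. Whether the routes differ was not tested.

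SNAREs work in sets, so the members were also read by textbook assembly, a grouping made after the values were seen. In the late endosomal set, Stx7 read 972 and 794 against 714 and 583 (0.44, adjusted p = 0.177), beside Stx8, Vti1b and Vamp7, and Vamp8 alone was near 0. In the autophagosomal set, Stx17 and Snap29 lay above cell bodies, with Vamp8 again near 0. In the set of the trans-Golgi network, Vamp4 rose while Stx16, Stx6 and Vti1a had differences of 0.086, 0.14 and 0.26. In the early Golgi set, Bet1 rose while Stx5a, Gosr2 and Sec22b had differences of -0.081, 0.11 and 0.29. The set for return from Golgi to reticulum and the intra-Golgi set held 0 calls each. Their medians were 0.24 and -0.014, and 2 of the 4 intra-Golgi members were below 0. At the cell surface, Stx4a read 1933 and 1875 against 1717 and 1767 (0.13), Vamp3, which recycles integrins, read 2857 and 2697 against 2495 and 2418 (0.18), and Vamp2 had a difference of -0.053. None of these 3 was called. Other plasma membrane syntaxins were Stx2 at 0.16, and Stx3 and Stx1a at -0.30 and -0.31, also not called.

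**Figure D3:**
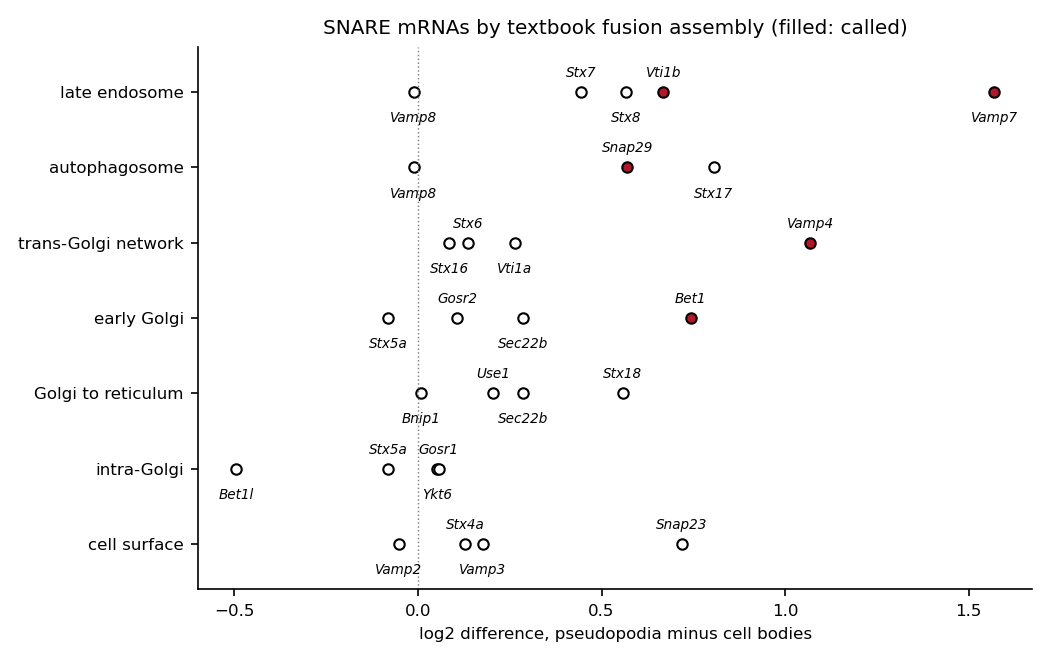
Log2 difference of pseudopodia minus cell bodies for SNARE mRNAs placed by the fusion assembly in which their proteins act; a protein of 2 assemblies appears in both, and filled dots are calls. Members of 1 assembly differ among themselves, as Vamp4 at 1.07 does from Stx16 at 0.086.

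Tested probe set by probe set, 95 of the 127 passed the filter, of which 8 rose and 2 fell. In that fit, 4.3% of all 22519 probe sets were higher and 7.44% were lower. The probe sets that rose were both of Vamp7 and 1 each of Vamp4, Bet1, Vti1b, Snap23, Stx17 and Stxbp3. That of Vti1b lost its call at this level with the replicate block (adjusted p = 0.0532) and without probe sets ending in _x_at or _s_at (adjusted p = 0.0590). Those of Snap23 and Stx17 lay under the filter's intensity on both cell body arrays and passed it only through pseudopodia, and that of Use1 passed only through cell bodies, so these calls lend no support to a change of the gene. That of Snap23 read 94.7 and 86.5 in pseudopodia and 31.2 and 23.6 in cell bodies (1.70, SE 0.19, adjusted p = 0.0241). That of Stx17 read 77.6 and 73.3 against 29.4 and 20, the last at the floor, so that its difference of 1.60 (SE 0.22, adjusted p = 0.0269) is uncertain in size. Stxbp3, a Sec1/Munc18 protein of the cell surface, had a dimmer probe set at 105 and 96.5 against 51.2 and 38.0 (1.17, SE 0.20, adjusted p = 0.0338). Its brightest one read 154 and 78.9 against 115 and 77.4, a difference of 0.22 (adjusted p = 0.743 at the gene level).

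The probe sets that fell belonged to Scfd1 and Use1. Scfd1, the Sec1/Munc18 protein of traffic between reticulum and Golgi, had a probe set at 38.4 and 46.7 in pseudopodia and 142 and 149 in cell bodies (-1.75, SE 0.17, adjusted p = 0.0241). The probe set that stands for Scfd1 read 102 and 76.4 against 94.8 and 127 (-0.31, adjusted p = 0.423 at the gene level). With the mean of its probe sets, Scfd1 fell, with a difference of -0.69 (adjusted p = 0.0310). That mean takes in the probe set at -1.75 and another that was at the floor on all 4 arrays. Use1, a SNARE of the endoplasmic reticulum, had a dim probe set at 26.3 and 23.8 against 85.8 and 75.4 (-1.65, SE 0.16, adjusted p = 0.0241). Its bright ones read 2248 to 3108 in pseudopodia and 1689 to 2820 in cell bodies, with differences of 0.20 and 0.29, neither of them called. Over all members, 37 of 51 further tested probe sets (72.5%) had the sign of the probe set that stands for the gene, against 71.1% of 8065 over all genes. What part of a transcript each probe set reads was not analysed here.

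**Figure D4:**
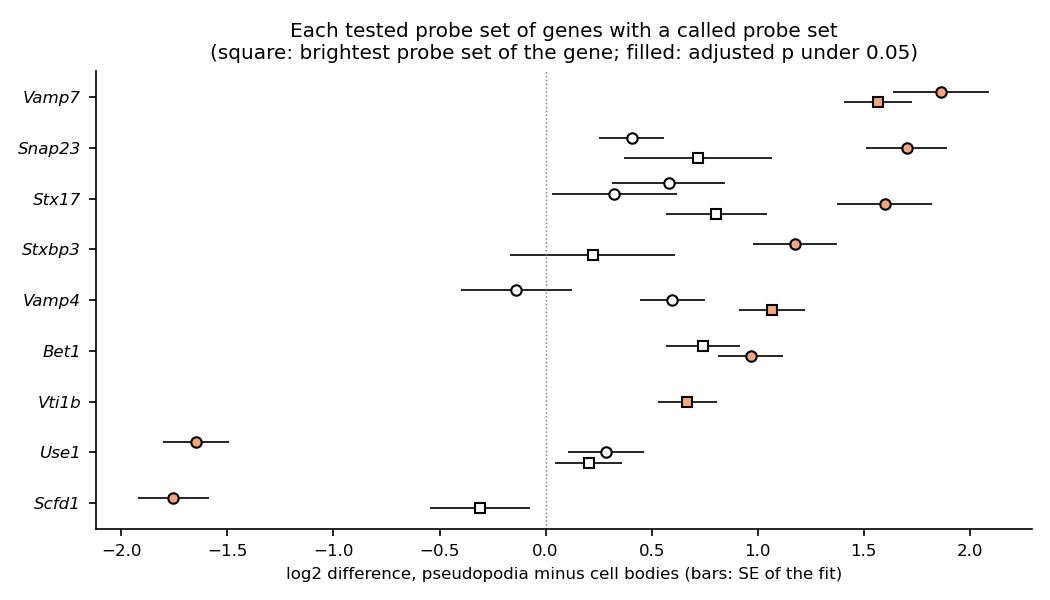
Log2 difference of every tested probe set (with the SE of the fit as bars) for the 9 genes with at least 1 called probe set; squares are the brightest probe set of a gene and filled symbols have an adjusted p under 0.05. Both probe sets of Vamp7 lie above 1.5, while the called probe sets of Use1 and Scfd1 lie at -1.65 and -1.75, apart from the other tested ones of the same genes.

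Genes that act beside SNAREs were read from 4 lists. Of 46 tested genes of tethering complexes, which catch vesicles before fusion, 5 rose and 0 fell, beside 5.92% and 8.69% of all genes, with a median of 0.10. Exoc5, of the exocyst, read 491 and 612 in pseudopodia and 209 and 187 in cell bodies (1.47, SE 0.17, adjusted p = 0.0166). Vps41, of the complex that tethers late endosomes, rose by 0.77 (SE 0.13), Trappc8 by 0.75 (SE 0.14), Vps54 by 0.73 (SE 0.13) and Trappc2 by 0.62 (SE 0.13). Trappc2l, the brightest, read 2031 and 1914 against 2144 and 2164 (-0.13, adjusted p = 0.565). Of 21 vesicle coat genes, 0 rose and 0 fell, and the brightest, Sar1b, had a difference of 0.042. Of 17 other Sec1/Munc18 proteins and fusion regulators, 0 rose and 0 fell; Txlna, which binds syntaxins, was the brightest, at -0.34 (adjusted p = 0.175), and Vps45, the Sec1/Munc18 partner of Stx16, had a difference of 0.48 (adjusted p = 0.0896).

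Of 14 tested genes of the machinery that inserts tail-anchored proteins, 4 fell and 1 rose, beside 8.69% and 5.92% of all genes. The differences of 12 were below 0, with a median of -0.39, and whether they differ from those of the SNAREs was not tested. All 5 that changed encode subunits of the reticulum membrane complex EMC. The membrane-embedded Emc1 read 227 and 301 in pseudopodia and 793 and 779 in cell bodies (-1.58, SE 0.18, adjusted p = 0.0166). Emc7 fell by 1.16 (SE 0.14), Emc3, the insertase subunit, by 0.89 (SE 0.19), and Emc10 by 0.85 (SE 0.17). Emc2, a subunit on the cytosolic side, read 1903 and 2043 against 850 and 715 and rose by 1.34 (SE 0.15, adjusted p = 0.0166). Emc6, the brightest of the list, had a difference of -0.10 (adjusted p = 0.643), and Get3, the cytosolic ATPase that carries tail-anchored proteins, of -0.21 (adjusted p = 0.468).

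**Figure D5:**
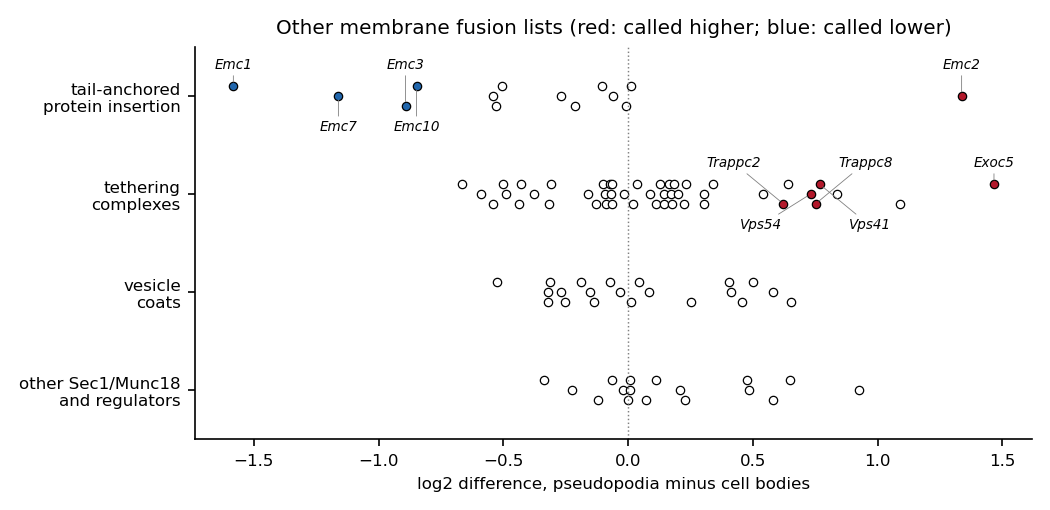
Log2 difference of pseudopodia minus cell bodies for the tested genes of 4 lists of membrane traffic, 1 dot per gene, with red for calls higher and blue for calls lower. Emc2 at 1.34 lies opposite Emc1 at -1.58, and Exoc5 at 1.47 is the tethering gene furthest to the right.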

How the data were processed

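Biotin-labelled total RNA was read on 4 Affymetrix mouse arrays. The deposited values are the authors' probe set intensities on a linear scale, with probe summary and array scaling not given in the sources used here. Here log2(intensity + 1) was taken, the 64 control probe sets were left out, and genes were fitted with limma 3.58.1 in R 4.3.3 (lmFit, eBayes, two-sided, no covariate, adjustment over all genes or probe sets tested). Each gene stood by its brightest probe set with 1 symbol, and the fit had 2 residual and 2.90 prior degrees of freedom. A fold is the antilog of a log2 difference and understates the change of dim genes. The array records list 1 chip lot, 1 scan day, 1 scanner and 4 fluidics modules, so no batch could be fitted. Precision is limited by having 2 arrays of each kind. Named were members called in either fit, those at least 0.5 apart, the brightest of each role and genes whose probe sets differ in sign with 1 called, and from the other lists the called and the brightest genes; other members are given by level. The members and lists were chosen with earlier results of these data known. Alternatives were the filter, pseudocount, scaling, choice of probe set, arrays left out and the replicate number as a block.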

Additional observations from a re-analysis of the deposited data

How the results depend on the processing

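With 1 array left out at a time, 0 members were called by limma at the gene level in either direction and 0 probe sets, the lists held 0 calls, and the class medians ran from 0.15 to 0.22 for tail-anchored SNAREs, from -0.053 to -0.0013 for soluble partners and from 0.15 to 0.23 for the gap between them. Without a filter, 0 members were called, with 0 probe sets higher and 0 lower and 0 calls in the lists. Over all genes limma then called 2 of 18193, 0 of them higher, and it called 73 of 45037 probe sets. At an unadjusted p under 0.05 limma gave 11 members higher and 3 lower, again without the share of all genes. Members called higher were 8 with median centring, which added Stx17, Stx18 and Stx8, and 3 without probe sets ending in _x_at or _s_at. Over all genes, calls higher were 670 in the fit reported above, 883 with median centring and 573 without those probe sets. They were 988 with the replicate block, 955 with the filter at 100 and 840 with quantile normalization. With a pseudocount of 16 they were 793, and with the mean of probe sets 499. With the mean of a gene's probe sets, limma called 4 higher, among them Snap23 (0.94, adjusted p = 0.0399). That mean takes in the Snap23 probe set that lay under the filter's intensity in cell bodies. Members called lower were 1, Scfd1, with the mean of a gene's probe sets, and with the filter at an intensity of 100, which removed those of Scfd1 and Use1, 1 probe set, of Bet1l, was called lower. Over all genes, calls lower were 984 in the fit reported above, 1256 with the filter at 100 and 896 with quantile normalization. They were 1096 with a pseudocount of 16, 1214 with the replicate block and 989 with the mean of probe sets. The tail-anchored median was 0.20 with median centring and 0.26 with quantile normalization, beside 0.038 and 0.053 for all genes. The soluble median was 0.0080, 0.043 and, with the mean of probe sets, 0.0015, and the gap with that mean was 0.14. In the insertion list, calls lower were 7 with the filter at 100 and 2 with quantile normalization, and the median was -0.24 with the mean of probe sets, -0.27 without a filter and without _x_at or _s_at probe sets, and -0.28 with quantile normalization (-0.42 to -0.32 with an array left out). In the tethering list, calls higher were 3 with the mean of probe sets, calls lower were 3 with the filter at 100, 1 with a pseudocount of 16 and 2 with the replicate block, and the median was 0.040 with the mean of probe sets and 0.035 without _x_at or _s_at probe sets (0.0045 to 0.085 with an array left out). Coat calls higher were 1 with the filter at 100, median centring, a pseudocount of 16 or quantile normalization and 2 with the replicate block, with a median of 0.085 under quantile normalization (-0.088 to 0.024 with an array left out). Calls higher among the fusion regulators were 2 with the mean of probe sets, 1 without _x_at or _s_at probe sets and 2 with the replicate block, and their median ran from 0.047 to 0.21 with an array left out.

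Signs turned for some members whose gene-level difference was called in no setting: Sec22a with the mean of probe sets (0.0090) and quantile normalization (8e-04), Stxbp2 with median centring (0.013) and quantile normalization (0.082), Stxbp4 with the mean of probe sets (0.14), median centring (0.0031) and quantile normalization (0.0028), Vamp8 with median centring (0.028) and quantile normalization (0.11), and Use1 with the mean of probe sets (-0.39). With an array left out the values ran from -0.061 to 0.080 for Napa, -0.16 to 0.034 for Sec22a, -0.11 to 0.060 for Stxbp2, -0.26 to 0.70 for Stxbp3, -0.15 to 0.072 for Stxbp4 and -0.048 to 0.024 for Vamp8. None of the 5 members called at the gene level turned. Median centring and quantile normalization also moved the median over all genes, from -0.0020 to 0.038 and 0.053. The replicate numbers are shared between compartments, and the differences between replicates correlated at 0.34 across genes, but 2 pairs do not show that the numbers pair the samples; with the replicate block, 7 members were called higher, adding Stx17 (adjusted p = 0.0315) and Snap23 (adjusted p = 0.0299), and 0 lower, and its other calls of members at the gene level were those of the fit without it. The alternative that set the classes from protein sequences was not run, since protein sequences were not used here.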
